A study of Arabidopsis thaliana with 10 samples.

Results

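A set of 64 probe sets was taken from ATH1 arrays of *Arabidopsis thaliana* roots. Its members were chosen for opposite differences in 2 comparisons, which were made at different sulfate supplies. They were higher in the sdi1sdi2 double knockout than in the wild type at low sulfate, and lower in plants that overexpress SDI1 than in the wild type at full sulfate. A probe set, the group of array probes read as 1 transcript, was taken when the group mean of the knockout at low sulfate exceeded that of the wild type by at least 0.8 on the log2 scale. The overexpression mean at full sulfate also had to lie at least 0.5 under the wild type, and the knockout mean at low sulfate above 0.5. Of 22197 probe sets with a value, 74 met these thresholds. Among 12 named exceptions, which include the glucosinolate enzymes BCAT4, GSTU20, AT2G31790 and AT2G25450 and the sulfite reductase SIR, 10 met them and were left out. The members were thus chosen by these 2 differences and 1 level, which are given below as a description and were not tested.

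The groups were wild-type Col-0 (Col) and the sdi1sdi2 double knockout (KO, lines 1 and 4), each at 1500 µM sulfate (+S) and at 15 µM sulfate (-S), and the SDI1 overexpressor (OX, lines 6 and 12) at +S alone. All plants were sown on the agar medium they stayed on, which carried sucrose, and whole roots were taken after 10 days. Each of the 5 groups had 2 arrays, which were the 2 lines in KO and OX and arrays numbered 1 and 2 in Col. The sources used here do not name the promoter behind the overexpressed SDI1, or say whether a line stands for 1 transformant.

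SDI1 and SDI2 (sulfur deficiency induced) are plant proteins whose transcripts accumulate when sulfate runs short, and they are known as repressors of aliphatic glucosinolate synthesis, SDI1 through binding the transcription factor MYB28. Glucosinolates are sulfur-rich defence compounds of the Brassicaceae. Their last core step transfers a sulfate group from the donor PAPS and releases PAP, so their synthesis draws on sulfate assimilation, on export of PAPS from plastids and on removal of PAP.

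Only part of the set can be named. A single gene was listed for 21 members, 1 probe set (253268_s_at) was listed for both UGT73B2 and UGT73B3, and 42 members are known here by their probe set alone. SDI1 has no single listed probe set here, so neither its loss in KO nor its overexpression in OX was checked. The knockout of SDI2 was visible on every KO array. SDI2 read 5.65 and 5.47 in Col -S and 1.83 and 1.57 in Col +S, against 0.31 and -1.52 in KO -S and -0.35 and -1.16 in KO +S, so no KO array reached a Col array. Probe set values correlated at 0.9904 to 0.9959 between the arrays of a group. Of 2 root hair markers measured, both rose in Col -S against Col +S. Of 3 shoot markers measured, all fell in Col -S and 1 fell in KO -S. The summed linear level of the shoot markers ran from 17.55 to 19.57 on Col +S arrays, 10.63 to 11.3 on Col -S, 14.79 to 15.0 on KO +S, 9.52 to 9.66 on KO -S and 14.36 to 16.46 on OX, and their part in the results was not tested. In whole roots, fewer cells of a type and less RNA per cell cannot be told apart.

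All levels are log2 values, in which a step of 1 is a doubling, and values are listed for line 1 before line 4, line 6 before line 12 and array 1 before array 2. On every array the members kept the order the rule asked of the means. In all 64 members both KO -S arrays lay above both Col -S arrays and both OX arrays lay below both Col +S arrays. The rule read these same arrays, so this order describes the choice of members and nothing further is read from it. The share over all probe sets was not counted. The median of the members' levels stood at 3.02 for Col +S, 1.73 for Col -S, 3.33 for KO +S, 4.69 for KO -S and 1.70 for OX. Over all probe sets tested it was 0.43 for both Col groups. The medians of Col -S and OX were alike, but the rule favours low values in both, so nothing is read from this. Member by member, Col -S minus OX ran from -2.98 in 264052_at to 4.22 in 254343_at. The lowest group mean was that of OX in 36 members and that of Col -S in 28, and the 2 means lay within 0.5 of each other in 30. KO -S had the highest mean in 54 members, Col +S in 7 and KO +S in 3.

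**Figure D1:**
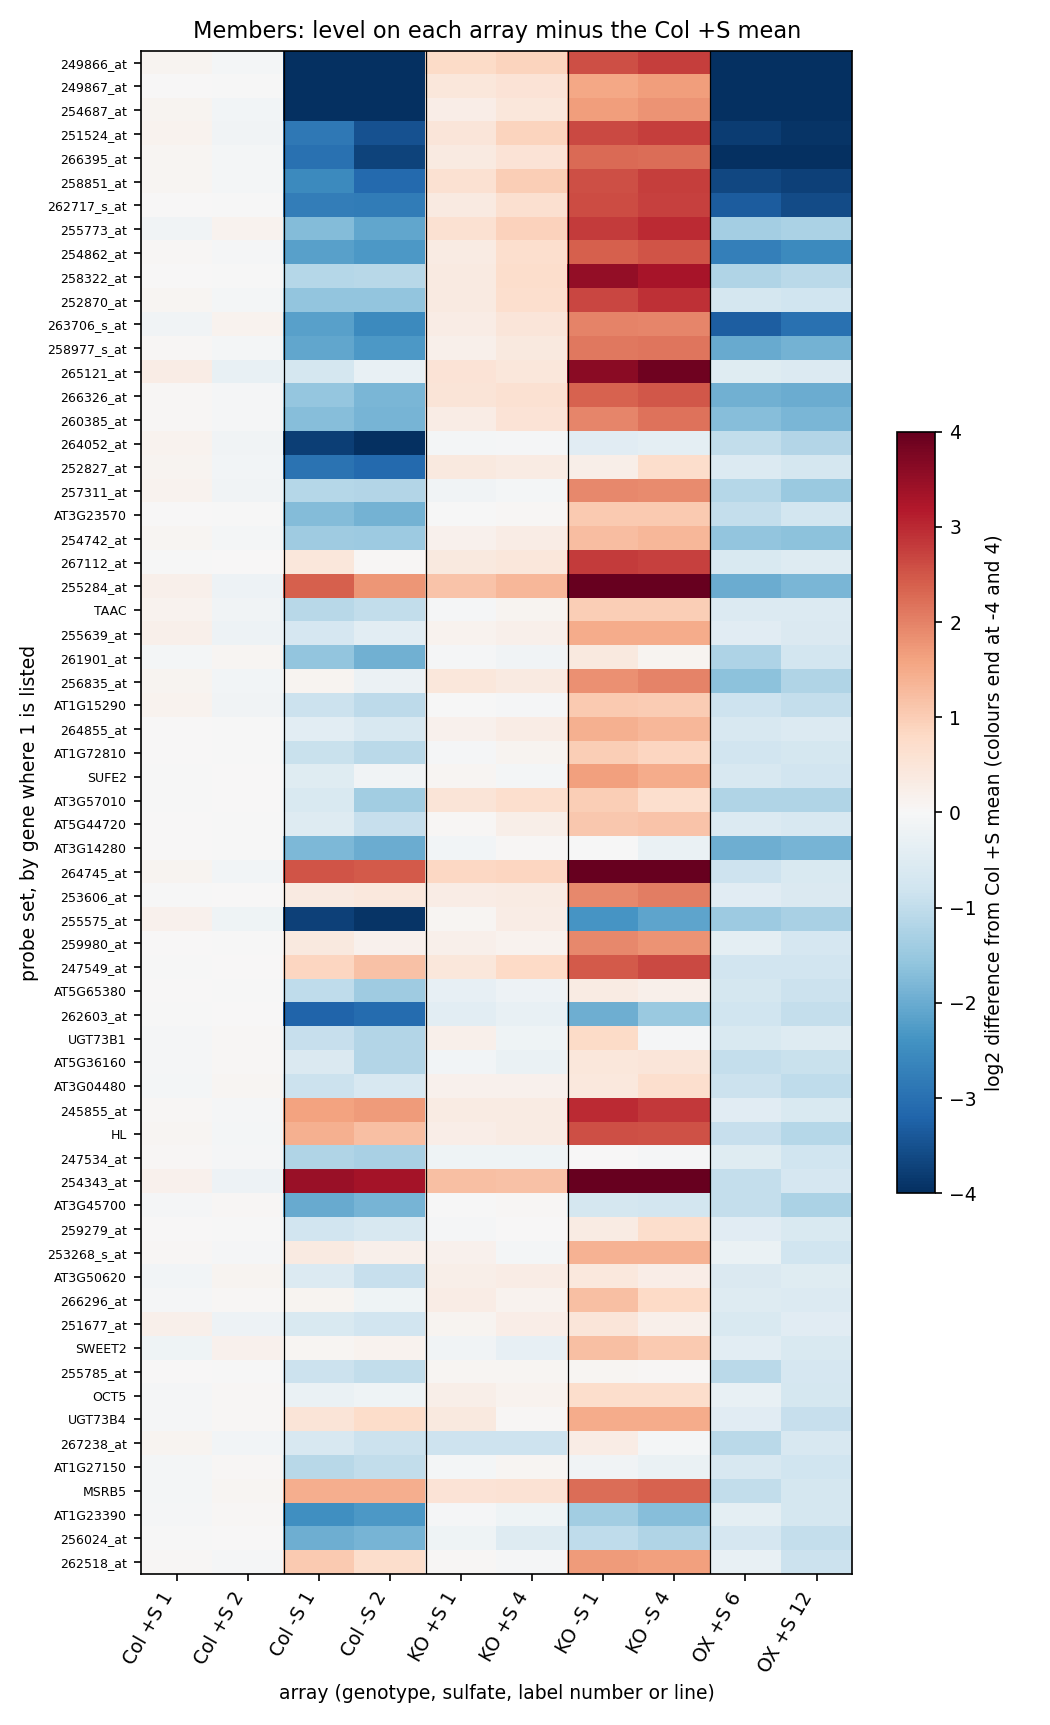
Each row is a member and each column an array, with the colour giving the log2 level minus the Col +S mean (red higher, blue lower, colours ending at -4 and 4). Rows are ordered by KO minus Col at -S. Both KO -S columns are red in 53 rows and the OX columns are blue throughout, while the Col -S columns are blue in most rows and red in a smaller group.

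The size of the 2 rule differences varied widely among the members. As fitted, KO minus Col at -S had a median of 1.84 and ran from 0.81 to 9.41, and OX minus Col at +S had a median of -0.85 and ran from -6.94 to -0.50. Array background was defined as the 95th percentile of 22 bacterial control probe sets on each array, and a fold against a group under it is given as a bound. With such members at their bounds the medians were 1.79 and -0.83. KO -S then exceeded Col -S at least 2-fold in 54 members, 8-fold in 19 and 16-fold in 13. All 19 members past 8-fold carry no listed gene. Col +S exceeded OX at least 2-fold in 23 members, 8-fold in 6 and 16-fold in 4, and 2 members allowed no fold there. Across the 64 members the 2 differences, which share no array, had a Pearson r of -0.86 and a Spearman rho of -0.61, both bounded by the thresholds and given as a description. The OX difference was 0.52 of the KO difference in size in the median member. With limma's adjusted p under 0.05, 63 members were called higher in KO at -S, where 1.73% of all probe sets were, and 32 were called lower in OX, where 0.405% were. The 32 became 15 without Col array 1, 20 without Col array 2 and 17 without OX line 6. Nothing is read from these counts, since the same contrasts chose the members.

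**Figure D2:**
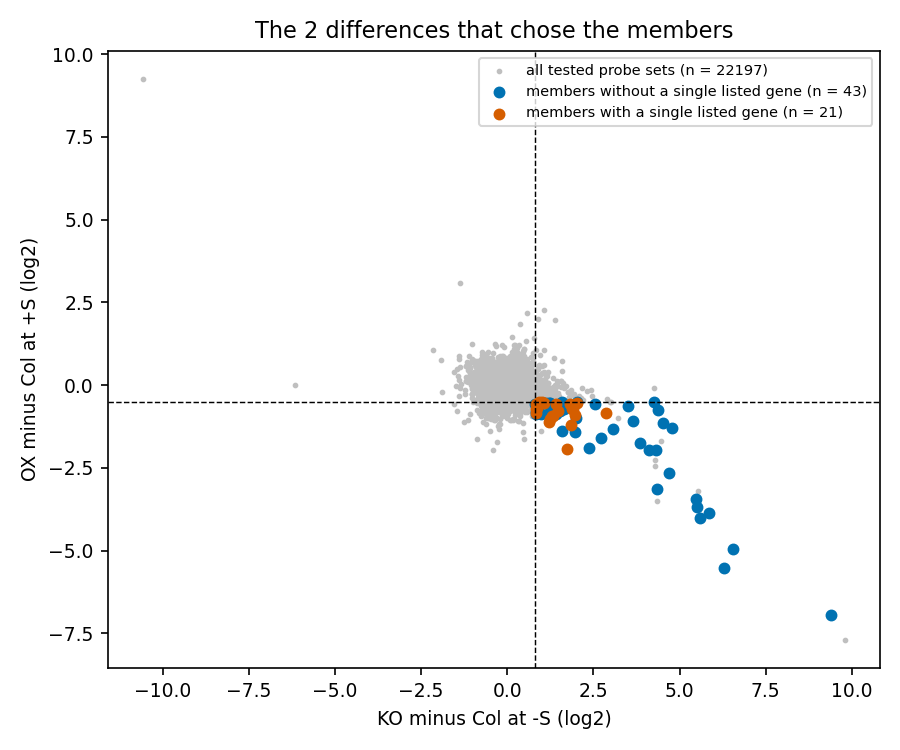
Each point is a probe set, with KO minus Col at -S on the x axis and OX minus Col at +S on the y axis, both in log2. Dashed lines mark the thresholds at 0.8 and -0.5. Members with a single listed gene (orange) lie near the corner, the farthest at 2.85 on the x axis, while members without one (blue) reach 9.41.

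Members close to a difference threshold lay close in that difference to probe sets that missed it, with a wider gap at the level threshold. For KO minus Col at -S the 3 nearest inside were 262518_at at 0.81, 256024_at at 0.82 and AT1G23390 at 0.83, and the 3 nearest outside were 258957_at at 0.78, 250570_at at 0.78 and 262133_at at 0.76. For OX minus Col, as fitted, they were 265121_at at -0.50, OCT5 at -0.50 and 255639_at at -0.51 inside, and 263696_at at -0.4994, 257674_at at -0.48 and AT5G67150 at -0.48 outside. For the KO -S level they were 255575_at at 0.90, AT3G50620 at 0.93 and 256024_at at 0.99 inside, and 267626_at at 0.40, 264734_at at 0.25 and AT1G09310 at 0.02 outside.

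The 5 members with the largest difference at -S have no listed gene. Probe set 249866_at read -1.12 and -1.61 in Col -S, 7.95 and 8.13 in KO -S, 5.47 and 5.29 in Col +S, -1.57 and -1.57 in OX and 6.15 and 6.27 in KO +S. Its Col -S and OX values were under array background. KO -S therefore exceeded Col -S at least 255-fold, and Col +S exceeded OX at least 45.9-fold. Probe set 249867_at read 1.90 and 1.33 in Col -S, 8.12 and 8.22 in KO -S, 6.58 and 6.54 in Col +S, 1.80 and 1.45 in OX and 7.01 and 7.12 in KO +S. It stood 93.9-fold higher in KO -S than in Col -S, and its Col -S and OX arrays overlapped.

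Probe set 254687_at read 1.79 and 1.25 in Col -S, 7.74 and 7.89 in KO -S, 6.20 and 5.96 in Col +S, 0.65 and 0.45 in OX and 6.36 and 6.54 in KO +S. Here OX lay under Col -S on every array. Probe set 251524_at read 1.74 and 1.11 in Col -S, 7.23 and 7.34 in KO -S, 4.72 and 4.45 in Col +S, 0.79 and 0.65 in OX and 5.08 and 5.48 in KO +S. Probe set 266395_at read 1.23 and 0.52 in Col -S, 6.49 and 6.46 in KO -S, 4.29 and 4.15 in Col +S, 0.16 and 0.25 in OX and 4.59 and 4.77 in KO +S. In all 5 the groups ran from KO -S down through KO +S to Col +S, with Col -S and OX both lower still, and every KO +S array lay above every Col +S array.

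Other members without a gene, named here after their values were seen, showed how far down the set could go. Members under background numbered 7 in Col -S and 9 in OX, with 6 under it in both, and none in Col +S or in either KO group. Probe set 258851_at read -0.31 and -0.85 in Col -S, 4.83 and 5.02 in KO -S, 2.34 and 2.16 in Col +S, -1.38 and -1.47 in OX and 2.86 and 3.25 in KO +S. KO -S exceeded its Col -S background by at least 29.5-fold and Col +S exceeded OX by at least 5.26-fold. Probe set 258322_at read -1.39 and -1.37 in Col -S, 3.26 and 3.04 in KO -S, -0.24 and -0.28 in Col +S, -1.47 and -1.34 in OX and 0.09 and 0.44 in KO +S, so that KO -S stood far above every other group, at least 8.6-fold over Col -S.

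Probe set 264052_at departed from the order of the 5 leading members. It read 1.63 and 1.05 in Col -S, 4.94 and 5.01 in KO -S, 5.54 and 5.23 in Col +S, 4.41 and 4.22 in OX and 5.32 and 5.34 in KO +S. It fell 16.5-fold at low sulfate in Col, and its KO arrays at -S lay just under those at +S. Probe set 254742_at kept that order and read 5.64 and 5.60 in Col -S, 8.29 and 8.39 in KO -S, 7.13 and 6.98 in Col +S, 5.47 and 5.43 in OX and 7.24 and 7.36 in KO +S. There Col -S and OX lay side by side, and KO lay above Col on every array at either supply.

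Among members with a gene, those tied to sulfur metabolism came in several kinds. TAAC (AT5G01500, also PAPST1), a plastid carrier that exports PAPS, read 1.01 and 1.14 in Col -S, 3.11 and 3.11 in KO -S, 2.28 and 1.99 in Col +S, 1.60 and 1.59 in OX and 2.08 and 2.25 in KO +S. KO -S was 4.09-fold above Col -S, while KO +S and Col +S overlapped. HL (AT5G54390), a HAL2-like phosphatase that acts on PAP, read 3.72 and 3.52 in Col -S, 4.88 and 4.85 in KO -S, 2.38 and 2.23 in Col +S, 1.38 and 1.17 in OX and 2.56 and 2.63 in KO +S. Unlike TAAC, it was higher at low than at full sulfate in Col too. The log2 difference was 1.32 ± 0.12 (SE from the limma fit over all 10 arrays, n = 2 against 2).

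SUFE2 (AT1G67810), an activator of the cysteine desulfurase that supplies iron-sulfur clusters, read -0.18 and 0.18 in Col -S, 1.94 and 1.80 in KO -S, 0.30 and 0.31 in Col +S, -0.34 and -0.47 in OX and 0.40 and 0.22 in KO +S. Its OX values were under background, so Col +S stood at least 1.37-fold above OX. AT5G44720, of the molybdenum cofactor sulfurase family, read 3.63 and 3.22 in Col -S, 5.22 and 5.30 in KO -S, 4.17 and 4.14 in Col +S, 3.62 and 3.53 in OX and 4.19 and 4.38 in KO +S. MSRB5 (AT4G04830), a methionine sulfoxide reductase, read 7.86 and 7.86 in Col -S, 8.64 and 8.76 in KO -S, 6.34 and 6.48 in Col +S, 5.41 and 5.70 in OX and 6.94 and 7.0 in KO +S. MSRB5 had KO above Col on every array at either sulfate supply. SUFE2 had overlapping KO and Col arrays at +S, and AT5G44720 had KO +S above Col +S by a mean of 0.12.

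A pair of members act on amino acids. AT1G72810, a threonine synthase, read 1.49 and 1.30 in Col -S, 3.36 and 3.23 in KO -S, 2.41 and 2.36 in Col +S, 1.63 and 1.68 in OX and 2.32 and 2.50 in KO +S. AT5G36160, a tyrosine aminotransferase, read 1.64 and 1.05 in Col -S, 2.65 and 2.68 in KO -S, 2.17 and 2.25 in Col +S, 1.25 and 1.33 in OX and 2.10 and 1.94 in KO +S. At -S the KO arrays of both genes lay above every other array, and at +S the KO arrays overlapped Col for AT1G72810 and lay just under it for AT5G36160.

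Members of enzyme families that modify small molecules included AT3G23570, of the alpha/beta hydrolase family, which had the largest rule difference among members with a gene. It read 1.57 and 1.43 in Col -S, 4.35 and 4.35 in KO -S, 3.33 and 3.29 in Col +S, 2.36 and 2.57 in OX and 3.31 and 3.37 in KO +S. KO -S was 7.23-fold above Col -S, and Col -S was the lowest group, under OX. AT3G57010, a strictosidine synthase-like protein, read 2.83 and 2.05 in Col -S, 4.42 and 4.13 in KO -S, 3.43 and 3.47 in Col +S, 2.25 and 2.25 in OX and 3.95 and 4.13 in KO +S. Its KO arrays at the 2 sulfate supplies adjoined each other, both KO groups lay above both Col groups, and Col -S overlapped neither Col +S nor KO but held OX between its arrays.

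**Figure D3:**
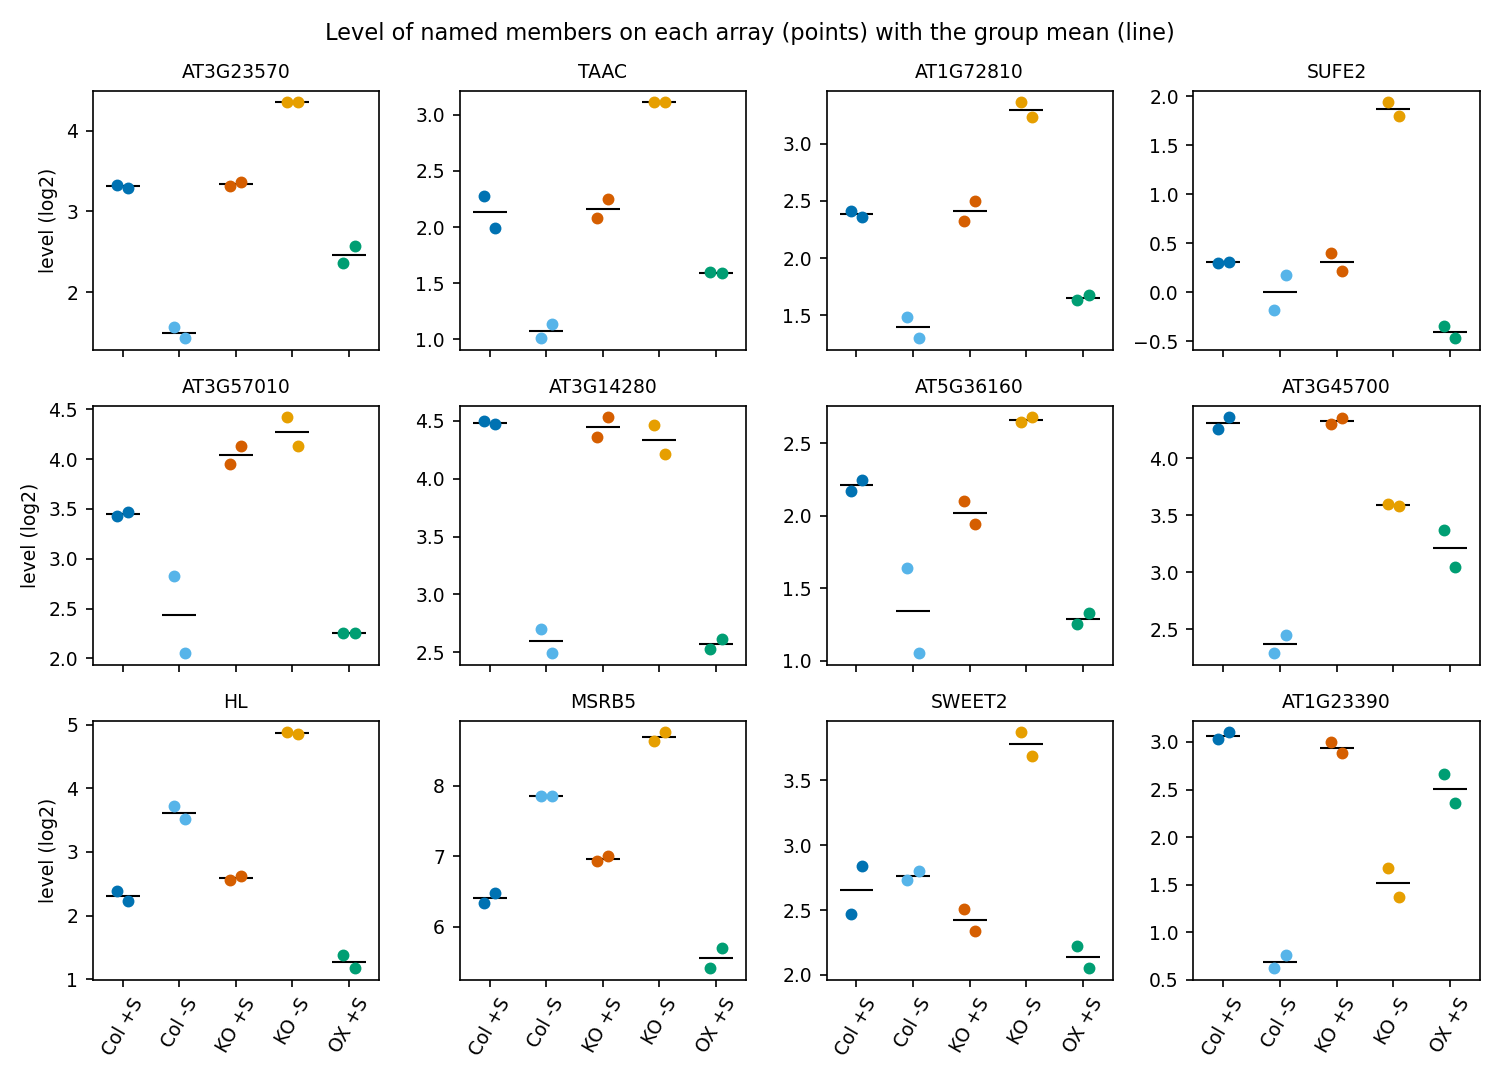
Each panel is 1 member with a listed gene, with points for the 2 arrays of each group, a line for the group mean and the log2 level on the y axis, whose range differs between panels. KO -S is the highest group for TAAC, SUFE2, HL and MSRB5. For AT3G45700 and AT1G23390 both -S groups lie under Col +S.

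UDP-glycosyltransferases of the UGT73B group, which attach sugars to small molecules, held 2 single-gene members and the shared probe set. UGT73B1 read 0.37 and 0.11 in Col -S, 2.07 and 1.24 in KO -S, 1.23 and 1.35 in Col +S, 0.68 and 0.76 in OX and 1.50 and 1.13 in KO +S. UGT73B4 read 0.59 and 0.80 in Col -S, 1.57 and 1.57 in KO -S, 0.04 and 0.12 in Col +S, -0.37 and -0.83 in OX and 0.47 and 0.12 in KO +S. The shared probe set 253268_s_at, named after its values were seen, read 3.66 and 3.51 in Col -S, 4.71 and 4.70 in KO -S, 3.37 and 3.25 in Col +S, 3.04 and 2.50 in OX and 3.47 and 3.24 in KO +S. For UGT73B1 the 2 KO -S lines stood apart (SD 0.59), and line 4 at -S lay between the KO +S arrays. Signal on 253268_s_at cannot be divided between its 2 genes, and OX of UGT73B4 was under background, which leaves Col +S at least 1.17-fold above it.

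Transport proteins formed the last group with known roles. AT5G65380, of the MATE efflux family, read 2.14 and 1.74 in Col -S, 3.47 and 3.35 in KO -S, 3.18 and 3.13 in Col +S, 2.46 and 2.29 in OX and 2.83 and 2.94 in KO +S. SWEET2 (AT3G14770), a vacuolar sugar transporter of roots, read 2.73 and 2.80 in Col -S, 3.87 and 3.69 in KO -S, 2.47 and 2.84 in Col +S, 2.22 and 2.05 in OX and 2.51 and 2.34 in KO +S. OCT5 (AT1G79410), of the organic cation transporter family, read 1.60 and 1.70 in Col -S, 2.57 and 2.57 in KO -S, 1.81 and 1.93 in Col +S, 1.56 and 1.17 in OX and 2.09 and 2.02 in KO +S. KO -S stood alone at the top for all 3, and for AT5G65380 both KO +S arrays were under both Col +S arrays.

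AT3G45700, which encodes NPF2.4 of the nitrate and peptide transporter family and was named after its values were seen, read 2.29 and 2.45 in Col -S, 3.60 and 3.58 in KO -S, 4.26 and 4.36 in Col +S, 3.37 and 3.05 in OX and 4.30 and 4.35 in KO +S. AT1G23390, a kelch F-box protein that directs breakdown of chalcone synthase, read 0.62 and 0.76 in Col -S, 1.67 and 1.37 in KO -S, 3.03 and 3.10 in Col +S, 2.66 and 2.36 in OX and 3.0 and 2.88 in KO +S. In both, full sulfate stood above low sulfate in Col and in KO alike, and KO -S lay between Col -S and Col +S. The TPR-repeat member AT1G15290 read between -0.19 and 0.01 on its Col -S and OX arrays, 1.88 and 1.86 in KO -S, 1.00 and 0.69 in Col +S and 0.83 and 0.81 in KO +S.

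For AT3G14280, AT3G04480 and AT3G50620 no role is stated here. AT3G14280 had the largest OX difference among members with a gene, and read 2.70 and 2.49 in Col -S, 4.46 and 4.21 in KO -S, 4.50 and 4.47 in Col +S, 2.53 and 2.61 in OX and 4.36 and 4.53 in KO +S. Low sulfate in Col and overexpression at +S left it at overlapping levels, the KO +S arrays overlapped the Col +S arrays, and the KO -S arrays lay just under them. AT3G04480 read 0.88 and 1.11 in Col -S, 2.16 and 2.41 in KO -S, 1.67 and 1.81 in Col +S, 0.90 and 0.73 in OX and 1.91 and 1.93 in KO +S. AT3G50620 read 0.04 and -0.33 in Col -S, 1.00 and 0.86 in KO -S, 0.46 and 0.70 in Col +S, 0.00 and 0.09 in OX and 0.83 and 0.87 in KO +S.

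The members did not share 1 sulfate response. In Col, 45 members fell at -S against +S, where 5.0% of all probe sets fell, and 9 rose, where 4.44% did (limma, adjusted p under 0.05). In KO, 43 members rose at -S, where 2.92% of all probe sets rose, and 5 fell, where 3.5% did. The 5 became 3 without KO line 1 at +S, and 3 without KO line 4 at -S. The median difference was -1.03 in Col and 1.29 in KO, against 0.02 and 0.00 over all probe sets. Col +S, Col -S and KO -S all enter the rule, which favours high Col +S, low Col -S and high KO -S, so these counts describe how the set is made up.

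The largest group, of 25 members, fell at -S in Col and rose at -S in KO, a combination found in 42 probe sets or 0.189% of all. TAAC, AT3G23570, AT1G15290, AT1G72810, AT5G44720 and the 5 leading members without a gene belonged to it. AT3G23570 fell by 1.81 ± 0.11 (SE, n = 2 against 2) in Col and rose by 1.01 ± 0.11 in KO. Across this group the median level was 3.323 for Col +S, 1.43 for Col -S, 3.55 for KO +S, 5.29 for KO -S and 1.41 for OX. Col -S and OX had like medians, though the rule favours low values in both. Both KO medians lay above that of Col +S.

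A second group of 15 fell in Col and was not called in KO, with AT3G14280, AT5G65380, AT5G36160, AT3G04480, AT3G50620, AT3G57010, UGT73B1 and AT1G27150, a TPR-repeat protein named after its values were seen. AT3G14280 fell by 1.89 ± 0.12 in Col and differed by -0.11 ± 0.12 in KO. The group's median level was 2.84 for Col +S, 1.72 for Col -S, 2.88 for KO +S and 2.91 for KO -S, so its KO level was close to the Col +S level at either supply. Another 9 were not called in Col and rose in KO, with SUFE2, SWEET2 and UGT73B4 among them. SUFE2 differed by -0.31 ± 0.14 in Col and rose by 1.56 ± 0.14 in KO.

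A further 9 members rose at -S in both genotypes, with HL and MSRB5 as the named genes. MSRB5 rose by 1.45 ± 0.12 in Col and by 1.73 ± 0.12 in KO, and HL by 1.32 ± 0.12 and 2.27 ± 0.12. The median level of these 9 was 2.97 for Col +S, 5.39 for Col -S, 4.17 for KO +S, 7.29 for KO -S and 2.12 for OX. In this group alone the Col -S median lay above the Col +S median. The 5 members that fell in both included AT1G23390, which fell by 2.38 ± 0.14 in Col and by 1.42 ± 0.14 in KO, and AT3G45700, which fell by 1.94 ± 0.12 and 0.74 ± 0.12. OCT5 was called in neither genotype. As a difference between the 2 responses, 47 members were called higher in KO by limma's interaction term, where 0.613% of all probe sets were, with the same reservation. With line or array number as a fixed block, 25 of these calls were left.

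**Figure D4:**
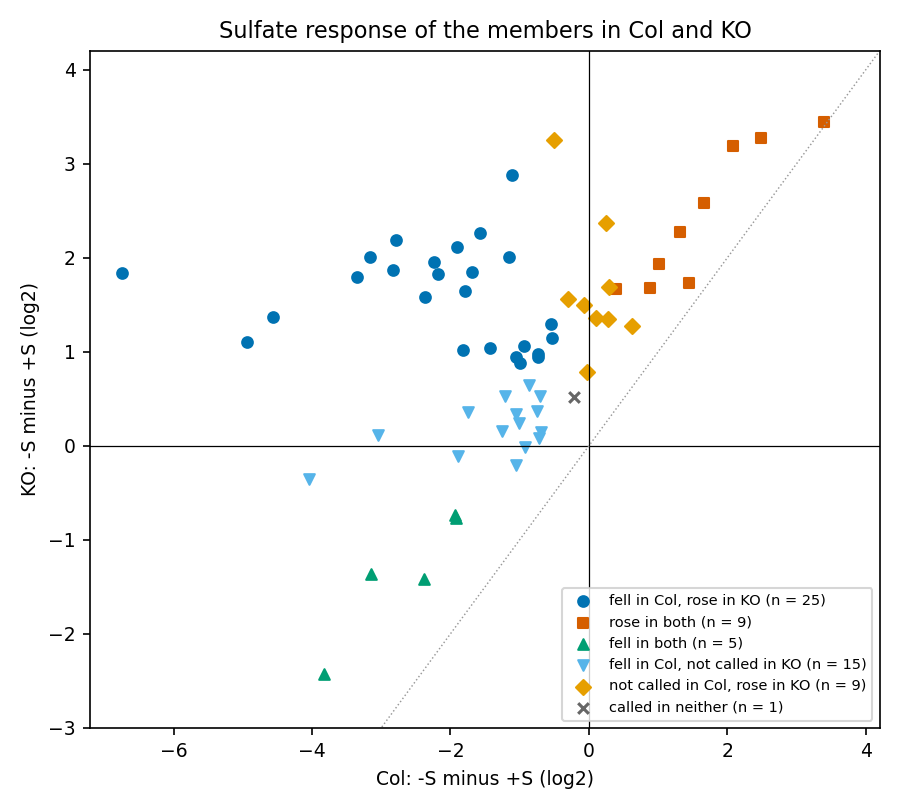
Each point is a member, with the -S minus +S difference in Col on the x axis and in KO on the y axis, both in log2, and the dotted line marks equal responses. All 64 points lie on or above that line, the 25 that fell in Col and rose in KO at the upper left and the 9 that rose in both at the upper right.

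The comparison of KO with Col at +S uses KO arrays that the rule never read, and it asks whether the set was already higher in the knockout when sulfate was ample. It shares the Col +S arrays with the rule, which favours high values on them and so works against a positive difference. No member was called by limma at an adjusted p under 0.05, among 22197 probe sets of which 5, or 0.0225%, were called. Without KO line 4 at +S, 59 probe sets were called and still no member. At an unadjusted p under 0.05, 30 members passed, 27 of them higher in KO, which is 42.2% of the members against 2.9% of all probe sets higher at that level. The median difference was 0.22, with quartiles of 0.01 and 0.49, against -0.02 over all probe sets. The members are brighter than most probe sets, with a median level in Col +S of 3.02 against 0.43. Of all probe sets 7404 were under background in Col +S, and no member was. Shares among probe sets of like level were not counted, here or below.

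Both KO +S arrays lay above both Col +S arrays in 38 members, or 59.4%, where 17.3% of all probe sets did, and below them in 7 members, where 24.5% did. Each knockout line showed the shift on its own. Line 1 had a median difference from the Col mean of 0.21, with 46 members higher, and line 4 one of 0.28, with 48 higher. Over all probe sets those medians were -0.03 and -0.02. As the Col arrays are shared, the lines are not separate tests. By group means, 49 members were higher in KO, and 9659 of all 22197 probe sets were.

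**Figure D5:**
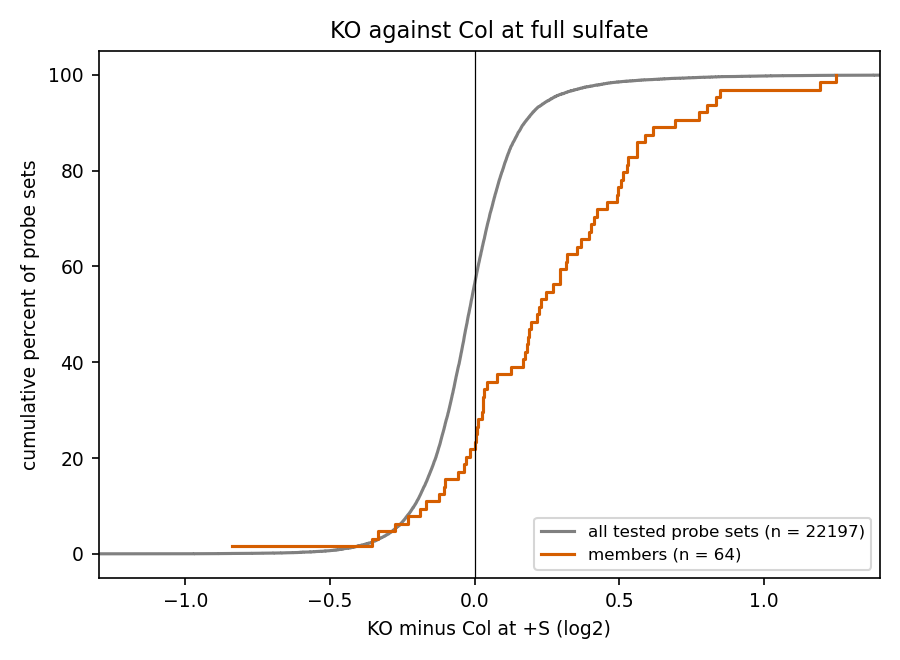
The curves give the cumulative percent of probe sets by KO minus Col at +S, in log2, for the 64 members and for all 22197 probe sets tested. Over its upper part the members' curve lies to the right of the curve for all probe sets, with a median of 0.22 against -0.02.

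The 3 largest differences at +S, named after their values were seen, were in probe sets without a listed gene that also rose at -S in both genotypes. Probe set 255284_at read 3.51 and 3.13 in Col +S, 4.47 and 4.66 in KO +S, 1.32 and 1.50 in OX, 5.72 and 5.07 in Col -S and 7.75 and 7.76 in KO -S. Its KO minus Col difference at +S was 1.25 ± 0.21 (SE, n = 2 against 2, limma adjusted p = 0.156). Probe set 254343_at read 3.16 and 2.78 in Col +S, 4.19 and 4.15 in KO +S, 2.01 and 2.30 in OX, 6.44 and 6.31 in Col -S and 7.51 and 7.71 in KO -S. The difference at +S was 1.19 ± 0.15 (limma adjusted p = 0.0874), nearly that at -S of 1.24.

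Probe set 264745_at read 3.50 and 3.31 in Col +S, 4.24 and 4.27 in KO +S, 2.57 and 2.80 in OX, 5.91 and 5.86 in Col -S and 7.49 and 7.55 in KO -S. It differed by 0.85 ± 0.11 at +S (limma adjusted p = 0.0874). In these 3 members the 5 groups did not overlap and kept the order OX, Col +S, KO +S, Col -S and KO -S. The calls depend on the setting. With array weights the adjusted p was 0.0194, 0.013 and 0.013 for 255284_at, 254343_at and 264745_at, and with an intensity trend and robust variances 0.0455, 0.0152 and 0.0152. Quantile normalization gave 0.0489 for 254343_at, and leaving out the dimmest probe sets gave 0.0299 for 254343_at and 0.0302 for 264745_at. Under every other alternative run, none of the 3 passed.

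Among members with a gene the shift at +S was small. Their median difference was 0.03, with 14 of 21 positive. The 5 highest were AT3G57010 at 0.59 ± 0.22 (limma adjusted p = 0.80), MSRB5 at 0.56 ± 0.12 (0.272), HL at 0.29 ± 0.12, AT3G50620 at 0.27 ± 0.14 and UGT73B4 at 0.22 ± 0.17. The 5 lowest were AT5G65380 at -0.27 ± 0.14, SWEET2 at -0.23 ± 0.14, AT5G36160 at -0.19 ± 0.17, AT1G23390 at -0.12 ± 0.14 and AT3G14280 at -0.04 ± 0.12. None of these 10 passed the test, and TAAC differed by 0.03 ± 0.12 and SUFE2 by 0.00 ± 0.14. The lowest of all members was 267238_at, named after its values were seen, at -0.84 ± 0.17 (limma adjusted p = 0.27), with 2.61 and 2.41 in Col +S against 1.67 and 1.68 in KO +S.

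The difference at +S went with the size of the difference at -S, which shares no array with it. Across the 64 members Pearson r was 0.49 and Spearman rho 0.53, as a description over probe sets that share the 10 arrays. Of the 19 members past 8-fold at -S, 17 had both KO +S arrays above both Col +S arrays. Over all probe sets 17.3% did. The median difference was 0.49 in these 19, against 0.12 for the others. The 19 were picked by a rule difference read in the same KO lines, so this too is a description. The sulfate groups were formed by calls that use the same Col +S and KO +S arrays, so their medians at +S are partly set by the grouping. The median was 0.40 in the group that fell in Col and rose in KO, 0.56 in the group that rose in both, 0.22 in the group that rose in KO alone, 0.00 in the group that fell in Col alone and -0.12 in the group that fell in both.

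The 2 lines of each genotype gave like medians over the set in the contrasts that chose it. Since the rule read these arrays, the values per line are a description. At -S the median difference from the Col mean was 1.88 in KO line 1 and 1.76 in line 4, and all 64 members were above the Col mean in either line. Overexpression lines 6 and 12 had medians of -0.84 and -0.83, and all 64 were below the Col mean in either. At most -0.5 was reached by 50 members in line 6 and by 62 in line 12, so the OX lines differed at the threshold.

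Few genes of the related pathways could be set beside the members, because most have no single listed probe set here. For the same reason the 42 members without a listed gene could not be checked against these pathways. Of 30 genes of sulfate assimilation and PAPS supply 4 were measured, and of these 4 TAAC alone is a member. The other measured genes were SIR, left out by the rule, and ATPS3 and ATPS4, ATP sulfurylases that start sulfate assimilation. In KO against Col at -S, ATPS3 was higher by 1.85 ± 0.14 (limma adjusted p = 0.00017), while in OX it differed from Col by -0.16 ± 0.14, short of the rule. ATPS4 fell by 3.94 ± 0.11 in Col at -S and by 3.87 ± 0.11 in KO, and KO and Col at -S differed by -0.14 ± 0.11.

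Of 32 genes of aliphatic glucosinolate synthesis 6 were measured under a listed gene. None of these 6 is a member, since the rule leaves out the 4 that met its thresholds. Other genes of the pathway may lie among the 42 members without a listed gene. UGT74B1 stood 2.07 ± 0.13 higher in KO at -S but OX differed by -0.37 ± 0.13. AOP3 was under background in all 5 groups. GTR2, a glucosinolate importer, was higher in KO at -S by 0.90 ± 0.15 and differed by -0.45 ± 0.15 in OX, which put it just outside. The importer GTR1 went another way, with 0.05 ± 0.19 for KO minus Col at -S and 0.75 ± 0.19 for OX minus Col. BGLU28, a glucosidase induced by sulfur deficiency, was under background at +S, rose at least 364.5-fold in Col and at least 457.5-fold in KO at -S, and was no member.

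Taken one condition at a time, the rule was less selective. The KO condition with the level limit was met by 212 probe sets, of which 34.9% also met the OX condition, and the OX condition with the level limit by 246, of which 30.1% met the KO condition. None of the single-gene members lay within 5 genes of another in the annotation used for neighbours. The 42 members without a listed gene, and 253268_s_at, listed for UGT73B2 and UGT73B3, were outside that check.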

How the data were processed

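Root RNA from 5 groups of 2 arrays was hybridised to Affymetrix ATH1 arrays, per the labels, and array titles gave the groups. The authors deposited 1 value per probe set on a log10 scale, as judged from the values, where the spiked controls fit base 10. The sources used here do not state how they corrected background, summarised probes or normalised. They were turned into log2 values here. Of 22810 probe sets, 554 had no value and 64 are controls (5 of them without a value), which left 22197. Gene names came from the platform annotation, updated through RefSeq by gene ID. Of 13513 probe sets with 1 listed gene, 13436 matched, and 8794 have no gene listed here.

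Differences were fitted with limma 3.58.1 in R 4.3.3, with 1 mean per group over all 10 arrays and Benjamini-Hochberg adjustment over all probe sets. The fit was tested on simulated data. Each SE is that of this fit, with the spread estimated over all 10 arrays and adjusted by limma, while n gives the arrays compared. The error has 5 residual degrees of freedom and the number of arrays limits precision. No label says that arrays came from separate cultures, so p-values measure the spread between these samples. A group counts as under background where both its arrays are under the 95th percentile of 22 bacterial controls, and a fold against it is a bound set at that floor.

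The members, gene lists and thresholds were chosen with earlier results of these data known. Named genes are the 12 single-gene members with the largest difference at -S, members of the gene lists, the 5 highest and lowest at +S, the 3 on either side of each threshold and the 5 leading members without a gene. The lists cover aliphatic and indolic glucosinolates (0 of 11 indolic genes measured), sulfate assimilation and sulfur deficiency. They also cover methionine and leucine synthesis (MGL alone, called in no comparison), glucosinolate transport and breakdown, and cell type markers. A gene counts as measured only where a single-gene probe set is listed for it. Promoter and protein sequences were not analysed here. Alternatives covered normalization, a filter on dim probe sets, the variance model, array weights, the arrays fitted, a block on line or array number, 1 probe set per gene, other thresholds and each array left out.

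Whether numbers pair arrays was checked through deviations from group means: they correlated at 0.07 between sulfate supplies for the KO lines, which are the same lines in both, and at -0.14 for the Col numbers.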

Additional observations from a re-analysis of the deposited data

Results flagged for a closer look

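The response to low sulfate differed between KO and Col in 47 members by limma's interaction term, KO minus Col in -S minus +S (0.613% of all probe sets were called in that direction). The rule chose KO -S high and Col -S low, so this count is a description of the set and supports nothing further. It fell to 25 with a fixed block on line or array number. On the log2 scale the difference in response was 6.04 in 249867_at, 5.93 in 254687_at, 5.17 in 251524_at and 5.15 in 266395_at. It was fitted at 8.57 in 249866_at, whose Col -S arrays are under background, so that this value is not exact. Among members with a gene it was 2.83 in AT3G23570, 2.0 in TAAC, 2.0 in AT1G15290, 1.87 in AT1G72810, 1.87 in SUFE2, 1.78 in AT3G14280, 1.74 in AT5G65380, 1.71 in AT5G44720, 1.51 in AT5G36160, 1.25 in SWEET2, 1.12 in AT3G04480 and 0.95 in HL. Near the thresholds of the rule it was 1.16 in 256024_at. It was fitted at 3.76 in 265121_at, 1.85 in 255639_at and 1.4 in 255575_at, whose Col -S arrays are also under background. With 2 arrays per group no group was large enough to look for single outlying arrays.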

How the results depend on the processing

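With thresholds of 1 and -0.7 the rule kept 37 of the 64 members, and with 1 array left out it found 60 to 73. These were not always the same probe sets. Without OX line 12 it found 60, of which 50 were members, and without Col +S array 1 it found 65, of which 58 were. For KO against Col at +S, no member and 5 probe sets in all were called. Array weights gave 6 and 69, the intensity trend with robust variances 3 and 31, quantile normalization 1 and 8, and the fit without the dimmest probe sets 2 and 23. Leaving out 1 array gave 0 members each time and 4 to 59 probe sets, the 59 without KO +S line 4, and the members' median difference ran from 0.21 to 0.28. Members called lower in OX numbered 15 to 35 when 1 array was left out: 15 without Col array 1 and 20 without Col array 2 at +S, and 17 without OX line 6. Members that fell in KO numbered 3 to 5, with 3 without KO +S line 1 and 3 without KO -S line 4.

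The numbers of KO lines pair the arrays, as the same line was grown at both supplies. The fixed replicate block left 25 of the 47 interaction calls, and with it 39 members fell in Col, 42 rose in KO and 23 did both. With a random block 46 interaction calls were made.

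Of 72 calls in the sulfate comparisons and the interaction for named members, 21 were lost under at least 1 alternative and 0 turned direction. Those of HL and SWEET2 in the interaction were lost in 11 each, and 256024_at in 14. The cause of these changes was not tested. Normalization unstated by the sources used here and 2 arrays per group limit every value.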
